A study of Mus musculus with 6 samples.

Results

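Tight junction and desmosome genes were examined in RNA-seq libraries of mouse T cells grown together with ID8, an ovarian cancer cell line of the same species. The members were the protein-coding genes of the deposited table named as claudins (Cldn followed by digits only), the ZO scaffolds of the Tjp family, the membrane proteins Ocln, Marveld2, Marveld3 and F11r, and the desmosome genes Dsp, Jup, Pkp1 to Pkp4, Dsg2 and Dsc2. There were 38 of them among 54532 genes, of which 22046 were protein-coding. The 10 claudin-like symbols with letters after the digits, such as Cldn34c1, were kept apart.

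The T cells came from spleens of C57BL/6 mice aged 6 to 8 weeks and were isolated with a pan T-cell kit. Their medium held IL-2 at 10 ng/mL, and anti-CD3/28 magnetic beads pre-activated them over 72 h. In 3 libraries (cisplatin) the ID8 cells had been pretreated with 40 µM cisplatin, and in 3 libraries (control) with PBS. ID8 cells and pre-activated T cells were thus common to both groups, and cisplatin was given to the tumour cells before the co-culture. The comparison asks how T cells differ after contact with cisplatin-pretreated tumour cells. The sources used here do not describe how T cells were separated from ID8 cells before RNA was extracted, nor whether libraries of a group came from separate mice, so the p-values measure the spread between these libraries only.

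Tight junctions seal the space between neighbouring epithelial cells. Claudins and the MARVEL proteins occludin and tricellulin span the membrane there, the immunoglobulin-type adhesion molecule JAM-A lies beside them, and the ZO scaffolds tie them to actin. Desmosomes are the spot-like contacts that anchor keratin filaments, built from desmosomal cadherins outside and from plakoglobin, plakophilins and desmoplakin inside the cell. Most of these proteins belong to epithelial and mesothelial cells, and resting lymphocytes are not known for tight junctions or desmosomes, although JAM-A is also found on leukocytes and platelets.

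The libraries held 30606569 to 32169496 reads on genes. The 26 T-cell markers, among them Cd3d, Trac and Lck, were all present, with a summed level of 2035 to 2168 FPKM (fragments scaled by transcript length and by library size) in the control and 3225 to 3299 FPKM in the cisplatin libraries. Markers of other cells were also present. The 29 ID8 tumour markers found in the table summed to 1983 to 2071 FPKM in the control and 332 to 341 FPKM in the cisplatin libraries, and the 10 B-cell markers summed to 1676 to 1760 FPKM and 3607 to 3684 FPKM. Most of the B-cell sum in both groups was Ighm. The median log2 fold change, cisplatin over control, was 0.60 for the B-cell markers and 0.61 for the T-cell markers. The libraries therefore held RNA of cells other than T cells, and the label T cells describes them in part.

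The 38 members together summed to 260 to 263 FPKM in the control libraries and to 56.7 to 60.8 FPKM in the cisplatin libraries. Of the 38, 17 averaged 0.5 FPKM or more across the 6 libraries and were tested, 16 had reads below that level and 5 had none. The groups were compared with limma on log2(FPKM + 0.1), a scale that understates the change of low genes, over all 15874 genes at or above that average. A gene was called at a Benjamini-Hochberg adjusted p under 0.05 and a log2 fold change of at least 1 in size. With cisplatin, 12 of the 17 tested members fell and 0 were called higher, where 12.8% of all tested genes were called lower and 4.11% higher. Among protein-coding genes alone these shares were 14.8% and 2.03%. Without the fold minimum, 13 members were lower and 1 was higher at an adjusted p under 0.05 by limma, against 29.0% and 27.5% of all tested genes. The median log2 fold change was -1.89 over the tested members and 0.03 over all tested genes. The 12 genes kept from 5.68% of their control level (Pkp1) to 28.5% (Cldn15). The ID8 tumour markers moved in the same direction, with 22 of the 23 tested called lower at a median log2 fold change of -2.34, and their part in the fall of the members was not tested. In bulk RNA, fewer cells of a type and less RNA per cell cannot be told apart.

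**Figure D1:**
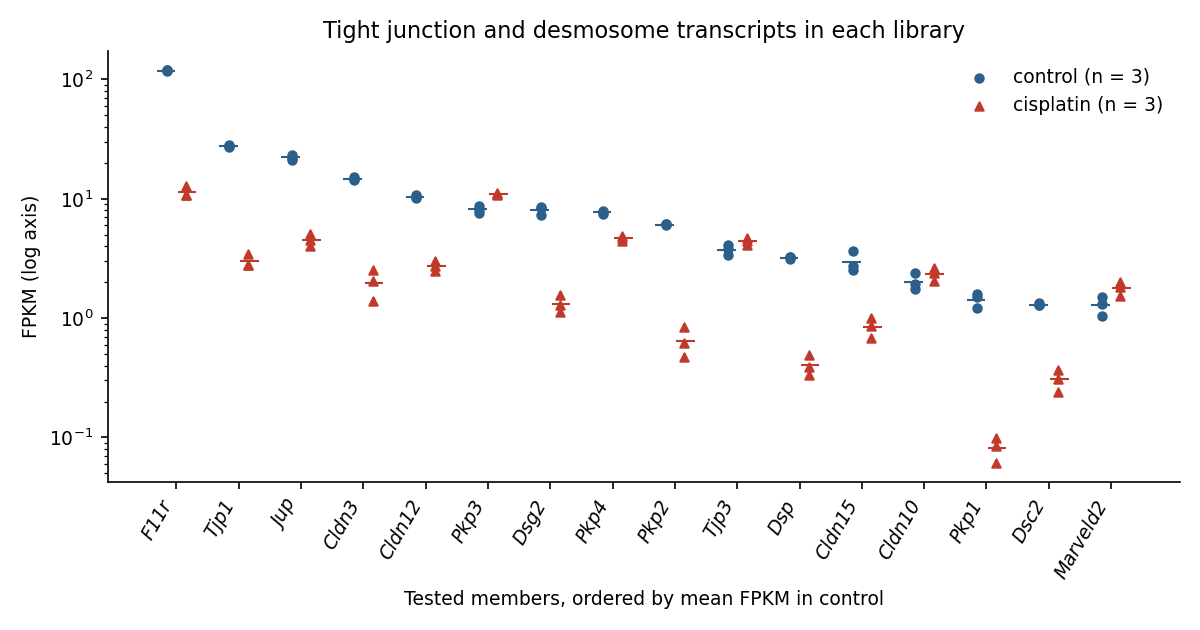
FPKM of 16 of the tested members in each library on a log axis, ordered by the control mean, with circles for the 3 control libraries, triangles for the 3 cisplatin libraries and bars for the group means. The groups lie apart with cisplatin lower for 12 genes, overlap for Tjp3 and Cldn10, and lie apart with cisplatin higher for Pkp3 and Marveld2. Over all tested genes the groups lie apart with cisplatin below for 32.3% and above for 31.9%.

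F11r encodes JAM-A, the junctional adhesion molecule that helps to place the polarity complex at new contacts. F11r (ENSMUSG00000038235, chromosome 1 from 171437535 to 171464603 of GRCm38) had the highest level per length of all members, with 119, 118 and 119 FPKM in control replicates 1 to 3 and 12.8, 10.7 and 10.8 FPKM in the cisplatin replicates. The groups were far apart, and the range within either group was small beside the gap. Its log2 fold change was -3.37 (95% interval -3.53 to -3.20), with an adjusted p of 1.7e-07 by limma. F11r held 45.3% ± 0.527 (SD, n = 3) of the summed member FPKM in the control libraries and 19.6% ± 1.22 (SD, n = 3) in the cisplatin libraries. In the cisplatin libraries F11r (10.7 to 12.8 FPKM) overlapped Pkp3 (10.7 to 11.3 FPKM), the next member in order. Platelets carry JAM-A as well, and of 8 tested platelet markers 1, Ppbp, was called lower (46.3 to 22.4 FPKM), while Pf4 (33.0 and 40.7 FPKM in control and cisplatin) and Itga2b (14.3 and 12.2 FPKM) did not pass the test. The list was mixed, with 4 negative and 4 positive log2 fold changes. At an adjusted p under 0.05 by limma, 2 were lower and 1 was higher, against 29.0% and 27.5% of all tested genes. The 1 of 8 called lower was close to the share over all tested genes, 12.8%. The part of platelets or leukocytes in the level of F11r was not tested.

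Tjp1 (ZO-1) and Tjp3 (ZO-3) are scaffolds and close relatives that bind the tails of claudins and occludin. Tjp1 (chromosome 7 from 65296165 to 65527781) had 27.9, 28.2 and 26.96 FPKM in the control and 3.45, 2.81 and 2.80 FPKM in the cisplatin libraries. For Tjp1 the log2 fold change was -3.16 (95% interval -3.37 to -2.96, adjusted p = 4.7e-07 by limma). Tjp3 (chromosome 10 from 81273207 to 81291581) was at a lower level in the control libraries, with 4.10, 3.37 and 3.79 FPKM in the control and 4.07, 4.73 and 4.41 FPKM in the cisplatin libraries. These groups overlapped, and the log2 fold change of 0.23 (95% interval -0.01 to 0.46, adjusted p = 0.089 by limma) did not pass. The interval leaves room for a rise of up to 0.46 and excludes a fall of the size seen for Tjp1.

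Tjp3 made up 11.9% ± 1.12 (SD, n = 3) of the summed FPKM of Tjp1 and Tjp3 in the control libraries and 59.3% ± 4.58 (SD, n = 3) in the cisplatin libraries. The groups did not overlap, and the two-sided exact permutation p was 0.1, the smallest that 3 libraries against 3 allow. In all, 12 shares of this kind were compared, chosen after the values were seen. Shares of a family are not independent of each other, and a p of 0.1 became 0.12 after Benjamini-Hochberg adjustment over the 12.

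The region before the start of Tjp1 and of Tjp3 is shown as a description of relatives that moved differently. A link between these sequences and the changes was not tested. The sequences are the 250 bases before the RefSeq start, written 5′ to 3′ in the direction of transcription, from chr7:65371245-65371494 (minus strand) for Tjp1 and chr10:81291582-81291831 (minus strand) for Tjp3 in GRCm38.p6. Neither window overlaps an annotated exon in GENCODE M21. Capitals mark the GC box (GGGCGG, or CCGCCC on the other strand) and the E-box bound by Snail and ZEB factors (CAGGTG or CACCTG).
Tjp1: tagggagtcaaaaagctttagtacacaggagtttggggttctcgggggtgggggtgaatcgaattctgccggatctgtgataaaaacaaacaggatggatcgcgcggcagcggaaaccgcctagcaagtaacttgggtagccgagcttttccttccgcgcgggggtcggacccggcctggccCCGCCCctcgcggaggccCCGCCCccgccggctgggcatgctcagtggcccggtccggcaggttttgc
Tjp3: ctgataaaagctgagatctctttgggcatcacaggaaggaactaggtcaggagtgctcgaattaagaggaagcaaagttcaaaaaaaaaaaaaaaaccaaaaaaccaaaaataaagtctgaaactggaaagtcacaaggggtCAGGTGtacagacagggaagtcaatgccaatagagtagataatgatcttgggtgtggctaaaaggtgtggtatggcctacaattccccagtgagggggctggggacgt
The Tjp1 window was 63.2% G and C with 22 CpG dinucleotides and held 2 GC boxes, starting at -68 and -50 from the RefSeq start. The Tjp3 window was 43.2% G and C with 2 CpG dinucleotides and held 1 E-box at -108 and no GC box. RefSeq has a second Tjp3 start, whose window overlaps 54 exon bases and is not shown. It was 57.2% G and C with 7 CpG dinucleotides and held 1 E-box at -17 and no GC box. Over 32851 RefSeq windows of the same length the median was 52.4% G and C with 6 CpG, 32.7% held a GC box on either strand and 17.2% this E-box. The bases directly after this RefSeq start of Tjp1 were found in 0 of its 7 GENCODE transcripts. GENCODE annotates a Tjp1 transcript that starts further upstream, which this window does not cover. Among tested members with a window free of their own exons, the first such window held a GC box in 4 of 5 called lower. It did so in 2 of 4 others. This rule left out F11r and Cldn15, both called lower, whose windows overlap 26 and 25 of their own exon bases. Each of these windows held 1 GC box, and that of F11r also held 1 E-box at -122. The first windows of Cldn12, called lower, and of Cldn10, not called, held no GC box, whereas later windows that overlap their exons did.

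Claudins set which ions and solutes pass a tight junction. Of the 23 claudin genes, 4 were tested and 3 of these fell, where 12.8% of all tested genes were called lower. Cldn3, a sealing claudin of many epithelia (chromosome 5 from 134986214 to 134987472), had 14.5, 14.4 and 15.3 FPKM in the control and 2.53, 1.39 and 2.03 FPKM in the cisplatin libraries. The log2 fold change of Cldn3 was -2.87 (95% interval -3.34 to -2.41, adjusted p = 2.7e-05 by limma). Cldn12, which lacks the usual tail motif for ZO binding, had 10.7, 10.2 and 10.4 FPKM in the control and 3.01, 2.75 and 2.47 FPKM in the cisplatin libraries, a log2 fold change of -1.89 (95% interval -2.08 to -1.70). Both claudins were well separated between the groups.

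Cldn15, which forms cation pores in the gut, had 2.52, 2.72 and 3.67 FPKM in the control and 1.004, 0.682 and 0.857 FPKM in the cisplatin libraries. Control replicate 3 was the highest, and the log2 fold change was -1.69 (95% interval -2.17 to -1.21). Cldn10, whose isoforms form pores for cations or anions in the kidney and in glands, had 1.93, 2.37 and 1.75 FPKM in the control and 2.61, 2.03 and 2.37 FPKM in the cisplatin libraries. Its groups overlapped, and the log2 fold change of 0.21 (95% interval -0.16 to 0.57, adjusted p = 0.29 by limma) did not pass.

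Cldn3 made up 47.5% ± 0.469 (SD, n = 3) of the claudin FPKM in the control and 22.3% ± 4.85 (SD, n = 3) in the cisplatin libraries, and Cldn10 made up 6.49% ± 1.14 (SD, n = 3) and 26.5% ± 1.87 (SD, n = 3). The two-sided exact permutation p was 0.1 for both. The share of Cldn12 was 33.5% and 31.2% (exact permutation p = 0.3) and that of Cldn15 was 9.52% and 9.58% (exact permutation p = 1). At 3 libraries against 3 none of these tests could pass a threshold of 0.05.

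The other 19 claudins were low or without reads in both groups. Cldn20 had the highest mean of these, 0.301 FPKM in the control and 0.245 FPKM in the cisplatin libraries, and was drawn from 0 to 13 reads per library. Cldn7, common in simple epithelia, had 2, 13 and 14 reads in the control and 12, 20 and 5 reads in the cisplatin libraries. Cldn1, the main claudin of skin, had 10, 4 and 26 reads and 0, 30 and 18 reads. Cldn5, the claudin of endothelial barriers, had 2 reads in control replicate 2 and 0 elsewhere. Cldn6, Cldn8, Cldn13, Cldn16 and Cldn22 had 0 reads in every library, which allows up to 3 reads per library, or 0.0905 to 0.1001 FPKM on a transcript of 1 kb. For Cldn22 this limit may not hold, since 100% of its exon bases are shared with Wwc2 on the other strand. Whether reads were counted by strand is not given in the sources used here. Differences between the groups were not detectable at this depth for these low claudins. Of the symbols kept apart, Cldn34c1 had 47, 38 and 51 reads in the control and 10, 8 and 2 reads in the cisplatin libraries, and was below the level tested.

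Cldn4 and Cldn3 are neighbours on chromosome 5, 39.3 kb apart with 0 protein-coding genes between them, and are often found together in epithelia. Here they were at very different levels per length. Cldn4 had 6, 8 and 10 reads in the control and 8, 8 and 8 reads in the cisplatin libraries, a control mean of 0.145 FPKM against 14.8 FPKM for Cldn3. The windows before the starts of both genes are shown for that contrast, from chr5:134985964-134986213 (plus strand) for Cldn3 and chr5:134946935-134947184 (minus strand) for Cldn4, with the same marks and with the AP-1 site TGANTCA also in capitals.
Cldn3: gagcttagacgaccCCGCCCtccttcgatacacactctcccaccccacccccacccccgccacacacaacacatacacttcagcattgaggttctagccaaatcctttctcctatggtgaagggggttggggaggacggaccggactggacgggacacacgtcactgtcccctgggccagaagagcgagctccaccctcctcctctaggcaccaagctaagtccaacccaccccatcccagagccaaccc
Cldn4: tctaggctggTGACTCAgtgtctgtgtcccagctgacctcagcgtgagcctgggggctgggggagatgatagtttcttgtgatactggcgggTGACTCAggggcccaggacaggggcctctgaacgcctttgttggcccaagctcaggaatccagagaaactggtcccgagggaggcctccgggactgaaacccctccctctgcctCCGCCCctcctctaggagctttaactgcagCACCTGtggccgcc
The Cldn3 window held 1 GC box at -236. The Cldn4 window held 1 GC box at -44, 1 E-box at -14 and 2 AP-1 sites at -240 and -158, and 6.75% of all windows held an AP-1 site. G and C made up 60.8% of the Cldn3 window and 62% of the Cldn4 window. A match of letters is a description and does not show that a factor bound there, and its part in the levels was not tested.

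The MARVEL proteins lie in the same membranes as claudins. Ocln (occludin) had 13, 28 and 7 reads in the control and 18, 27 and 9 reads in the cisplatin libraries, or 0.126 and 0.130 FPKM on average, and was not tested. Marveld3 had at most 4 reads in a library. Marveld2 (tricellulin, which sits where 3 cells meet) lies 43.2 kb from Ocln on chromosome 13 and had 1.32, 1.05 and 1.49 FPKM in the control and 1.53, 2.02 and 1.82 FPKM in the cisplatin libraries. The groups did not overlap, and the log2 fold change of 0.45 (95% interval 0.03 to 0.88, adjusted p = 0.067 by limma) missed the threshold. All tested genes had groups that did not overlap in 31.9% of cases with cisplatin above and in 32.3% with cisplatin below.

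All 8 desmosome members were tested, and 6 of them fell, where 12.8% of all tested genes were called lower. Jup encodes plakoglobin, the plaque protein that desmosomes share with adherens junctions, and Jup (chromosome 11 from 100368958 to 100397763) had 22.01, 23.3 and 21.3 FPKM in the control and 4.55, 3.99 and 5.05 FPKM in the cisplatin libraries. For Jup the log2 fold change was -2.27 (95% interval -2.49 to -2.06, adjusted p = 2.2e-06 by limma). Dsp, desmoplakin, the link to keratin filaments (chromosome 13 from 38151294 to 38198577), had 3.26, 3.23 and 3.13 FPKM in the control and 0.390, 0.334 and 0.489 FPKM in the cisplatin libraries. Its log2 fold change was -2.72 (95% interval -3.12 to -2.33). For both plaque genes every cisplatin library lay far below every control library.

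The desmosomal cadherins form the adhesive contact between cells. Dsg2, desmoglein 2, the desmoglein of simple epithelia, had 8.55, 8.36 and 7.37 FPKM in the control and 1.55, 1.13 and 1.29 FPKM in the cisplatin libraries. Dsg2 had a log2 fold change of -2.53 (95% interval -2.84 to -2.23). Dsc2, desmocollin 2, its usual partner, had 1.34, 1.28 and 1.28 FPKM in the control and 0.369, 0.240 and 0.310 FPKM in the cisplatin libraries. The log2 fold change of Dsc2 was -1.80 (95% interval -2.37 to -1.23), and with a pseudocount of 1 it was -0.82 and under the fold minimum.

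The plakophilins are armadillo-repeat proteins of the plaque, and they split. Pkp2, the plakophilin of simple epithelia and heart (chromosome 16 from 16213318 to 16272712), had 6.15, 6.10 and 5.99 FPKM in the control and 0.836, 0.619 and 0.472 FPKM in the cisplatin libraries. Pkp2 had a log2 fold change of -3.09 (95% interval -3.53 to -2.65, adjusted p = 1.5e-05 by limma). Pkp1, best known from stratified epithelia, had 1.21, 1.59 and 1.49 FPKM in the control and 0.0615, 0.0841 and 0.0983 FPKM in the cisplatin libraries, from 182, 240 and 230 reads and 10, 14 and 16 reads. The control mean of Pkp1 was 17.6 times the cisplatin mean, and its log2 fold change of -3.07 (95% interval -3.84 to -2.31) is held down by the pseudocount.

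Pkp4, a relative found at adherens junctions as well, had 7.96, 7.43 and 7.71 FPKM in the control and 4.65, 4.88 and 4.43 FPKM in the cisplatin libraries. Its log2 fold change of -0.72 (95% interval -0.86 to -0.57, adjusted p = 7.6e-05 by limma) passed the p threshold and not the fold minimum. Pkp3 (chromosome 7 from 141078218 to 141090510), a plakophilin of most epithelia, had 8.78, 8.08 and 7.66 FPKM in the control and 11.3, 10.9 and 10.7 FPKM in the cisplatin libraries. Every cisplatin library lay above every control library, as was the case for 31.9% of all tested genes. Its log2 fold change of 0.42 (95% interval 0.28 to 0.57, adjusted p = 0.0010 by limma) was the only positive one among the members to pass the p threshold on the deposited scale, and it did not reach the fold minimum.

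As a share of plakophilin FPKM, Pkp3 went from 34.9% ± 1.46 (SD, n = 3) in the control to 67.1% ± 1.03 (SD, n = 3) in the cisplatin libraries. Pkp2 went from 26.0% ± 0.419 (SD, n = 3) to 3.91% ± 0.995 (SD, n = 3). For both shares the two-sided exact permutation p was 0.1, the smallest possible. Pkp3, Tjp3, Cldn10 and Marveld2 were the tested members with a positive log2 fold change. Together they held 5.82% ± 0.267 (SD, n = 3) of the summed member FPKM in the control and 33.5% ± 1.37 (SD, n = 3) in the cisplatin libraries. A larger share with cisplatin was fixed by how these genes were picked and is given as a description only.

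**Figure D2:**
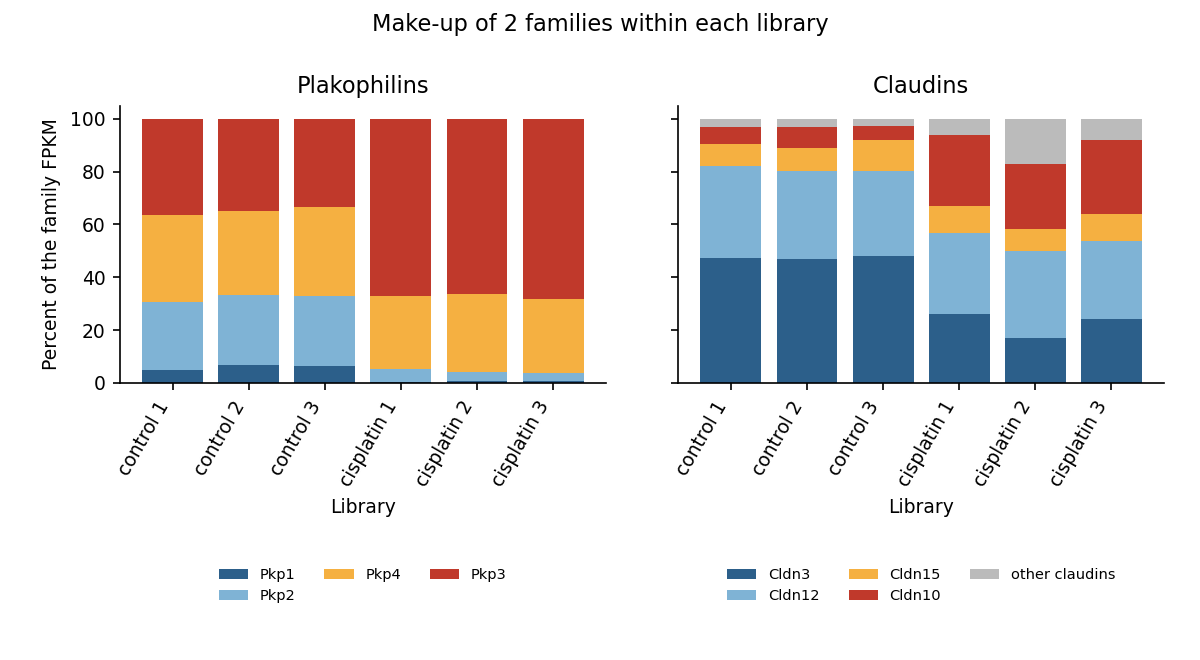
Stacked bars give the percent of the summed FPKM of the plakophilins and the claudins held by each gene, 1 bar per library with 3 control and 3 cisplatin libraries. Pkp3 and Cldn10 (red) take a larger part in every cisplatin library than in any control library, and Pkp2 and Cldn3 a smaller one.

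Pkp3, Tjp3, Cldn10 and Marveld2 had log2 fold changes between 0.21 and 0.45 on the deposited scale, where the 26 T-cell markers were all higher at an adjusted p under 0.05 by limma with a median of 0.61. The test results of Pkp3, Tjp3 and Marveld2 depended on the scaling. Cldn10 did not pass as deposited, after quantile normalization, when scaled by rebuilt reads, with voom or when centred on T-cell markers. The scale relative to the tumour markers is treated apart below. Tjp3 was higher at an adjusted p of 0.0083 by limma after quantile normalization (0.42), 0.029 when scaled by rebuilt reads (0.31) and 0.016 with voom (0.32), and Marveld2 at 0.019 (0.64), 0.037 (0.53) and 0.013 (0.57). Centring the libraries on their T-cell markers subtracts the marker mean of 0.59 from every gene, so values between 0 and that mean turn negative by construction, and Tjp3 was then lower (-0.36, adjusted p = 0.014 by limma). Markers of other cells were set beside them. Over all tested genes 4.11% were called higher and 12.8% lower. At an adjusted p under 0.05 by limma, 27.5% of them were higher and 29.0% lower. Of 12 myeloid markers 8 were called higher, among them C1qb (0.863 to 6.28 FPKM), and 1 was lower by p only. Of 10 B-cell markers all were higher at an adjusted p under 0.05 by limma, with Ighm (1433 to 3220 FPKM) called. Among markers of keratinocytes, Sfn had 18.5 and 36.8 FPKM, a log2 fold change of 0.99 that passed the p threshold only, and Krt10 did not pass, while the other 8 were below the level tested. Of 10 endothelial markers 4 were tested, with Tek (2.12 to 0.536 FPKM) and Robo4 (1.05 to 0.173 FPKM) called lower and Pecam1 (13.4 and 20.6 FPKM) higher by p only. Of 6 tested markers of glandular epithelium, Cdh1 (-1.48) and Elf3 (-3.43) were called lower, Spint2 (0.24) was higher by p only, and the others, among them Epcam (1.48 and 1.39 FPKM), did not pass. The part of these cells in the levels of the 4 genes was not tested.

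**Figure D3:**
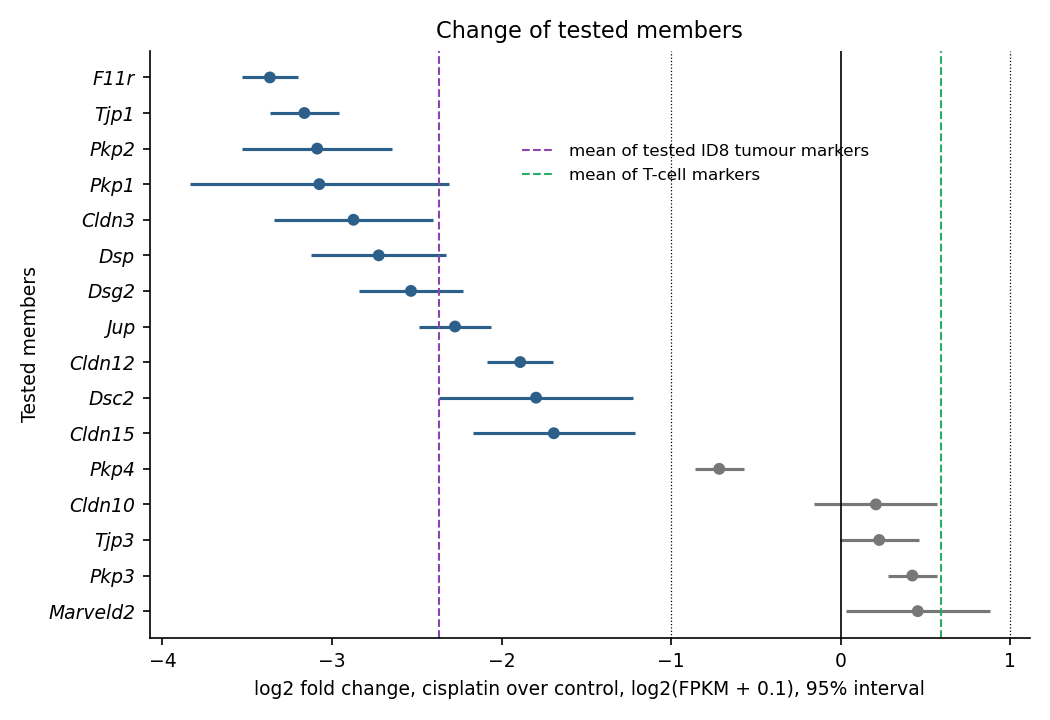
Points give the log2 fold change of 16 of the tested members (cisplatin over control, on log2(FPKM + 0.1)) and lines the 95% interval from limma, in blue for the 11 called lower and grey for the others. Dotted lines mark the fold minimum and dashed lines the mean of the 23 tested ID8 tumour markers (-2.37) and of the 26 T-cell markers (0.59), and the 11 called members spread on both sides of the tumour marker mean.

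The members were next compared with the tumour markers themselves, by the same fit after the mean of the 23 tested ID8 markers had been subtracted in each library. On this scale a value of 0 means a fall equal to that mean, and 88.2% of all tested genes were called higher and 0.75% lower. Of the 17 members, 5 were called higher, namely Marveld2 (2.82), Pkp3 (2.79), Tjp3 (2.60), Cldn10 (2.58) and Pkp4 (1.65), and 0 lower. Of the 12 that had fallen, F11r (-0.996, 95% interval -1.14 to -0.85), Tjp1 (-0.79, 95% interval -0.97 to -0.61), Pkp2 (-0.72, 95% interval -1.14 to -0.29) and Cldn3 (-0.50, 95% interval -0.94 to -0.07) lay below the marker mean at an adjusted p under 0.05 by limma, as did 2.15% of all tested genes. Cldn12 (0.48) and Cldn15 (0.68) lay above it at the same threshold, as did 92.2% of all tested genes. Jup, Dsg2, Dsp, Dsc2 and Pkp1 did not pass, and their intervals reached from -1.496 for Pkp1 to 1.14 for Dsc2. The desmosome members that fell thus differed from the tumour marker mean by an amount that passed the test for Pkp2 alone. F11r lay just inside the fold minimum and was called without cisplatin replicate 1 (-1.06), without control replicate 1 (-1.002) and without control replicate 2 (-1.006). Pkp1, Pkp2 and Tjp1 were also called lower under some other settings, and Pkp1 was called in opposite directions by pseudocount (-1.60 at 0.01 and 1.06 at 1). The markers themselves ranged from -4.20 for Ctgf to 0.04 for Thbs1 on the deposited scale.

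Other genes of the same junctions were read from lists. These and the marker lists were drawn up with earlier results of these data known, so their counts describe these data only. Of 28 tested genes of the tight junction outside the members, 18 fell and 0 were called higher, at a median log2 fold change of -1.82. Over all tested genes 12.8% were called lower and 4.11% higher. The largest fall was that of Ildr2, an angulin-type receptor of tricellular contacts, from 43.0, 46.0 and 42.1 FPKM to 2.83, 2.37 and 3.01 FPKM (log2 fold change -3.95). Lsr, the angulin that brings tricellulin to such contacts, went from 31.1 to 4.91 FPKM (-2.65), and its partner Marveld2 did not pass the test. The scaffold Mpdz (-3.23), the angiomotin relative Amotl2 (-3.20), the adhesion molecule Cxadr (-2.79) and the plaque protein cingulin (Cgn, -1.83) fell as well. Patj (0.94), the polarity kinase Prkcz (0.96), the exchange factor Arhgef18 (0.56) and Pard6g (0.49) were higher by p only. Genes of the same polarity complex as Prkcz were mixed. Pard6b (-2.31), Pard3 (-1.79) and Prkci (-1.68) fell, Pard6a (-0.04) did not pass, and Pard6g was among those higher by p only.

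All 4 tested genes of the desmosome outside the members fell. They were Cdsn (-3.73), the plakins Evpl (-2.72) and Ppl (-2.07), and Perp (-1.14). Of 15 tested adherens junction genes, 11 fell, among them Nectin2 (48.2 to 7.50 FPKM, -2.67) and p120 catenin (Ctnnd1, -2.26), and Ctnnb1, which T cells also use, had a log2 fold change of -0.45 that passed the p threshold only. Of 4 tested gap junction genes 3 fell, among them Gja1 (-2.09), and Panx1 (0.23) was higher by p only. Over the 4 lists, 36 of 51 tested genes fell and 0 were called higher, with a median of -1.79, where 12.8% of all tested genes were called lower.

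Of 22 regulators of epithelial state, 8 were tested and 6 fell, where 12.8% of all tested genes were called lower. These were the epithelial factors Elf3 (1.85 to 0.105 FPKM), Klf4 (54.5 to 10.1 FPKM) and Klf5 (1.73 to 0.476 FPKM), the splicing factor Esrp2 (2.57 to 0.424 FPKM), and the E-box repressors Snai1 (1.65 to 0.727 FPKM) and Snai2 (1.77 to 0.582 FPKM). The other E-box repressors were Zeb2 (2.33 to 1.59 FPKM, -0.53), lower by p only, and Zeb1 (5.41 and 5.65 FPKM), which did not pass. Relative to the ID8 tumour marker mean, Snai1 (1.25), Zeb2 (1.84) and Zeb1 (2.43) were called higher. They were 3 of the 8 tested regulators, where 88.2% of all tested genes were called higher on that scale.

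**Figure D4:**
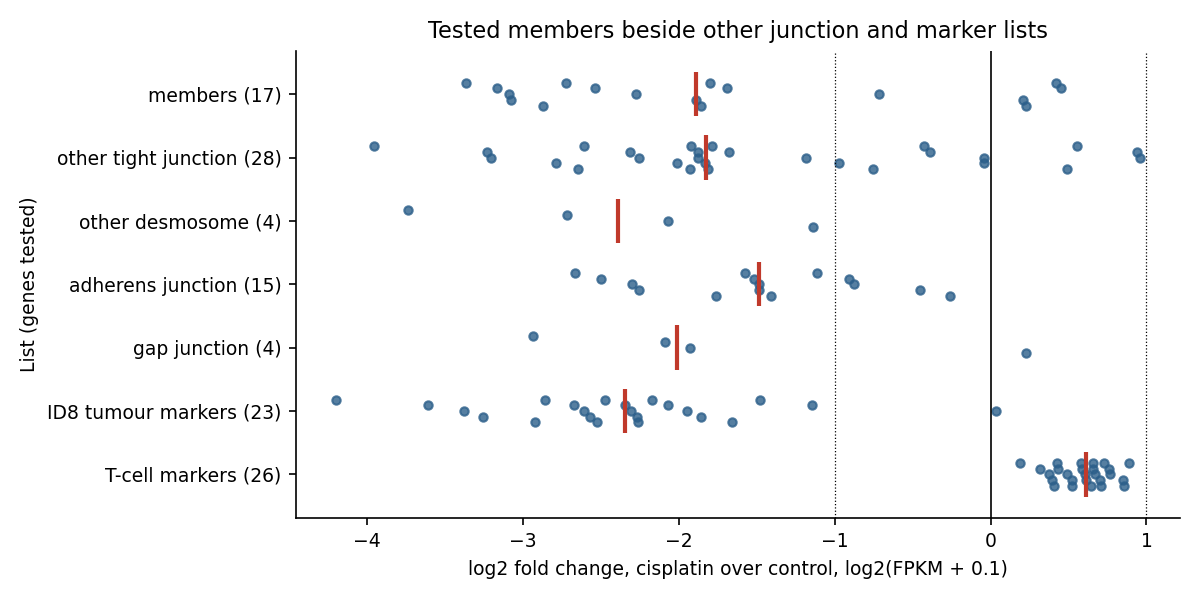
Each point is the log2 fold change of 1 tested gene (cisplatin over control, on log2(FPKM + 0.1)), by list, with the number of genes tested in brackets, a red bar at each list's median and dotted lines at the fold minimum. The members, the 4 junction lists and the ID8 tumour markers lie mostly below -1, and the T-cell markers between 0.19 and 0.89.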

How the data were processed

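Poly-A RNA-seq was made from 3 cisplatin and 3 control libraries of co-cultured T cells. The authors deposited FPKM values per gene. The submitters' processing notes name fastp, HISAT2, featureCounts and mm10, whereas the study's methods name LifeScope for alignment and counting and DESeq2 for the comparison, and counting by strand is not given in the sources used here. Table coordinates equalled those of GENCODE M21 (GRCm38) for 53499 of 54409 shared genes and for all 38 members. Promoter windows came from RefSeq (GRCm38.p6), which matched 27 of the 38 members.

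Reads per gene were rebuilt from FPKM, gene length and the smallest step of each library, and 100% of values lay within 0.1 of a whole read. The limits given for zero counts cover counting error only, while the 95% intervals rest on the spread between libraries as estimated by limma. Groups and replicate numbers came from sample labels. The main test was limma 3.58.1 (R 4.3.3), lmFit and eBayes with trend, on log2(FPKM + 0.1) for genes averaging 0.5 FPKM or more, 15874 of the 33456 with any read, at the study's thresholds with Benjamini-Hochberg adjustment over all of them. The scripts were tested on simulated data. No count test was the main result, since the unit is FPKM. Alternatives were other pseudocounts, filters and scalings, voom on rebuilt reads, no trend, leaving out each library and a replicate block.

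The members and gene lists were chosen with earlier results of these data known. Any member may be named, and of the lists those called with the largest changes come before others. Of 218 list symbols, 2 were not matched to 1 row and were not used. Some genes counted here are not reported by name.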

Additional observations from a re-analysis of the deposited data

How the results depend on the processing

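Of the 12 members called lower, leaving out each library gave 12 to 12, and 15 of 16 alternatives gave a count within 1.5 times of 12. A minimum average of 5 FPKM left 8 members tested and 6 called lower, and 20 of 28 other junction genes. With a pseudocount of 1, Dsc2 was not called, and with centring on T-cell markers Pkp4 was (-1.31). That centring subtracts the same 0.59 from every gene, which by construction turned Pkp3 to -0.17, Tjp3 to -0.36, Cldn10 to -0.38 and Marveld2 to -0.14, and made 96.5% of all calls lower, against 75.7% as deposited and 64.6% with quantile normalization, which moved the median of all genes by 0.13. Other junction genes called higher, 0 as deposited, were 2 with quantile normalization (Patj and Prkcz), 2 when scaled by rebuilt reads (the same genes) and 3 with voom (Jam3 also).

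Relative to the ID8 tumour markers, members called lower (0 in the main comparison) were 1 with a pseudocount of 1 (F11r), 1 with a pseudocount of 0.01 (Pkp1), 4 with no filter on low values (F11r, Tjp1, Pkp2 and Pkp1), 1 with quantile normalization (F11r), 3 with voom (F11r, Pkp2 and Pkp1) and 0 to 1 when each library was left out. Members called higher (5) were 8 with a pseudocount of 1, 20 of 33 tested with no filter and 2 of 8 tested at 5 FPKM. Pkp1 was higher at a pseudocount of 1 (1.06) and lower at 0.01 (-1.60). Filters and pseudocounts also change the marker mean that is subtracted, and with no filter it held 29 markers in place of 23, which moved every relative value. Without a filter the added members were near 0 in both groups, and the cause of the other shifts was not tested. Centring on T-cell markers was not run here, because subtracting the marker mean removes it. Scaling by rebuilt reads was not run either. Subtracting the marker mean removes that scaling only in part, since the pseudocount is added after it. Where leaving out a library left 2 in a group, limma pooled the spread over both groups.

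Replicate numbers are shared by the groups. Deviations of libraries with the same number correlated at 0.02, -0.06 and -0.02, so the numbers were not treated as pairs. With the replicate block, 12 members were called lower and 0 higher, 36 other junction genes lower and 0 higher, and relative to the tumour markers 0 lower and 5 higher. With 3 libraries a group, shares could not go below an exact p of 0.1, and the low claudins, with 30 reads or fewer per library, carried no detectable difference.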
